A study of Mus musculus with 10 samples.

Results

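The genes that write, copy and remove DNA methylation were followed through mouse embryos at the 8-cell stage. The set holds 9 of the 24421 genes listed in the deposited tables, chosen by symbol: the methyltransferases Dnmt1, Dnmt3a and Dnmt3b, the accessory protein Dnmt3l, the maintenance cofactor Uhrf1, the oxidases Tet1, Tet2 and Tet3, and the glycosylase Tdg. All 9 symbols were found in every table. Total RNA was sequenced from 10 libraries in 5 groups of 2. The siTfap2c embryos carried a knockdown of the transcription factor Tfap2c and the siKlf5 embryos a knockdown of the transcription factor Klf5. The groups titled Arpc1bE_CdxE1_KO and CdxE2_KO are both labelled as knockouts of a Tfap2c motif, and the Ctrl embryos are labelled only as control. All 5 groups share the BDF1 genotype, and the zona and polar bodies had been taken off the embryos. The labels give neither the number of embryos pooled in a library nor what the control embryos received, and they do not say whether the 2 libraries of a group came from separate embryo pools, so the p-values cover no more than library-to-library spread, which may be technical.

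In mammals Dnmt3a and Dnmt3b place new methyl groups on CpG cytosines, Dnmt3l stimulates them without being catalytic itself, and Dnmt1, guided to hemimethylated DNA by Uhrf1, copies the pattern after replication. The Tet enzymes oxidise 5-methylcytosine, and Tdg excises the most oxidised forms so that base excision repair can restore an unmodified cytosine. In the cleavage-stage mouse embryo most of the methylation inherited from the gametes is lost, with Tet3 supplied by the oocyte acting in the zygote and new methylation laid down around implantation.

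The labels were checked first on the targeted genes. Tfap2c stood at 3.94 and 4.09 in siTfap2c libraries, against 6.61 and 6.61 in Ctrl libraries, on the deposited log2 scale, which is log2(abundance + 1). Klf5 stood at 4.36 and 4.17 in siKlf5 libraries, against 7.20 and 7.13 in Ctrl libraries. Both targets were far below Ctrl. Klf5 was also lower in siTfap2c libraries, at 5.32 and 5.45. Of the genes that the motif knockout titles name, Arpc1b differed from Ctrl by -1.31 log2 units in Arpc1bE_CdxE1_KO and 0.16 in CdxE2_KO, and Cdx2, a Cdx gene, by -1.26 (limma adjusted p = 0.0176) in Arpc1bE_CdxE1_KO and -1.54 (0.00811) in CdxE2_KO. Of 16 markers of the 8-cell embryo, 15 averaged at least 1 linear unit in each group. Their summed level was 1266 to 1275 linear units in Arpc1bE_CdxE1_KO libraries and 1231 to 1238 in CdxE2_KO libraries, against 1071 to 1083 in Ctrl libraries. It was 710 to 729 in siTfap2c libraries and 885 to 897 in siKlf5 libraries. The markers include Tfap2c and Klf5, so part of each fall is that of the knockdown targets. Tfap2c averaged 96.7 linear units in Ctrl and 15.2 in siTfap2c. Klf5 averaged 142 in Ctrl, 40.8 in siTfap2c and 18.3 in siKlf5. The 17 markers of cumulus and granulosa cells, which surround the egg, summed to at most 6.80 linear units in any library. Of these, Fshr, Lhcgr, Inha and Nr5a1 were listed at 0 in all 10. Serpine2 stood at 1.78 to 2.36 in Ctrl, 3.89 to 4.03 in Arpc1bE_CdxE1_KO and 4.13 to 5.18 in CdxE2_KO libraries. As deposited it was higher than Ctrl in both motif knockouts (limma adjusted p = 0.0274 and 0.0116), as were 23.2% and 28.5% of all genes tested. It was 1 of 2 genes of this list that were tested. The linear values of a motif knockout library summed to 478651 to 498621, and those of a knockdown library to 388454 to 395401, against 389715 to 390386 in Ctrl libraries. The knockdown libraries were deposited in tables apart from that of Ctrl, so differences between them may hold differences in scaling. In whole embryos, fewer cells of a type and less RNA per cell cannot be told apart.

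The promoters of Dnmt3b and Tet2 are printed because these members were lower than Ctrl in both knockdowns. Each window is the RefSeq sequence (GRCm38.p6) from 250 bases before to 50 bases after an annotated transcript start, and promoters were found for 9 of the 9 members, 16 windows in all. Capitals mark matches of CCNCNCCC, a Klf-type letter pattern, on either strand, with overlapping matches merged. Dnmt3b lies on chromosome 2 from 153649450 to 153687730, plus strand, and its window is chr2:153649199-153649498. Tet2 lies on chromosome 3 from 133463679 to 133545139, minus strand, and its window is chr3:133544341-133544640, written along the minus strand.
Dnmt3b: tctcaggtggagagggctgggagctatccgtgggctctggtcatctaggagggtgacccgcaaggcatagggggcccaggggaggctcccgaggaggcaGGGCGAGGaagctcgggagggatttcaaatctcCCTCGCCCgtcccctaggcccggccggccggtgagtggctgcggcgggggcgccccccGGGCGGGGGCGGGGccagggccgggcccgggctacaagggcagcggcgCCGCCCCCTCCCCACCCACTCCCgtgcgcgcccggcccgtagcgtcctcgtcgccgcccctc
Tet2: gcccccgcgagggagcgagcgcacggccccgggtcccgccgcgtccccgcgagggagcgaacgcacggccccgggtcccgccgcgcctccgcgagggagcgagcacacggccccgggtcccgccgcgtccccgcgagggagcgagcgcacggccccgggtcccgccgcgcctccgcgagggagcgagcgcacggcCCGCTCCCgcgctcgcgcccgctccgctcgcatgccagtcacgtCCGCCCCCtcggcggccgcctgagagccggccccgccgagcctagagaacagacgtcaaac
The Dnmt3b window held 9 matches of the Klf-type pattern and the Tet2 window 2. It was also present in 49.5% of 32851 mouse promoter windows of this length, and in 13 of the 16 windows of the members. GCCNNNGGC, an AP-2-type pattern searched on both strands because Tfap2c belongs to the AP-2 family, had no match in either window. It occurred in 16.6% of all windows and in 4 of the 16 member windows, those being 1 of Dnmt1, 2 of Dnmt3a and 1 of Tdg. The Tet2 window had 57 CpG dinucleotides and the Dnmt3b window 30, against a median of 7 over all windows. These are descriptions of letters, and a match or its absence says nothing of binding.

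Knockdown of Tfap2c was accompanied by a large fall in Dnmt3b and a smaller one in Tet2, while Dnmt3l was higher and the remaining tested members differed little from Ctrl. Of the 9 members, 8 were high enough to be tested, with 2 or more libraries at 1 linear unit or above, and 3 of them passed the test, limma with Benjamini-Hochberg adjustment at an adjusted p under 0.05. Over all 11195 genes tested in this comparison 24.6% passed, 12.6% higher and 11.9% lower, and 3 of 8 members is a count near that background. The libraries of the groups did not overlap for the same 3 members, and for 65.8% of all genes. The median log2 difference was -0.04 over the tested members and 0.04 over all genes tested.

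Dnmt3b, the de novo methyltransferase active in early lineages, had log2 levels of 1.69 and 1.85 in siTfap2c libraries, against 3.44 and 3.49 in Ctrl libraries. Both knockdown libraries lay far below both controls. The log2 difference was -1.70 (SE 0.13, 95% interval -1.98 to -1.41, limma adjusted p = 2.39e-05), and in linear units the mean was 2.41 ± 0.26 in siTfap2c embryos and 10.0 ± 0.26 in Ctrl embryos (SD, n = 2 each). Leaving out any 1 of the 4 libraries kept the call, with log2 differences from -1.77 to -1.62.

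Tet2, a dioxygenase of the demethylation route, had log2 levels of 3.69 and 3.63 in siTfap2c libraries, against 4.33 and 4.38 in Ctrl libraries. The groups were well separated. The log2 difference was -0.69 (SE 0.10, limma adjusted p = 0.000934), and it too passed without any 1 of the libraries, at adjusted p-values up to 0.0108. Tet2 shares 43 exonic bases with the opposite-strand gene Gm42567.

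Dnmt3l, on chromosome 10 from 78041947 to 78063622, had low values throughout. It stood at 1.44 and 1.41 log2 units in siTfap2c libraries, against 0.82 and 0.92 in Ctrl libraries. Both siTfap2c libraries were above both controls and above every other library of the series. The log2 difference was 0.56 (SE 0.14, limma adjusted p = 0.0199), but the call was lost without any 1 of the 4 libraries, at adjusted p-values from 0.0631 to 0.110. Dnmt3l passed the filter on low values only through the siTfap2c and Arpc1bE_CdxE1_KO libraries, and with no filter its adjusted p was 0.0282. Its gene shares 67 exonic bases with Aire on the opposite strand, and strand use in the counting is not given in the sources used here.

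**Figure D1:**
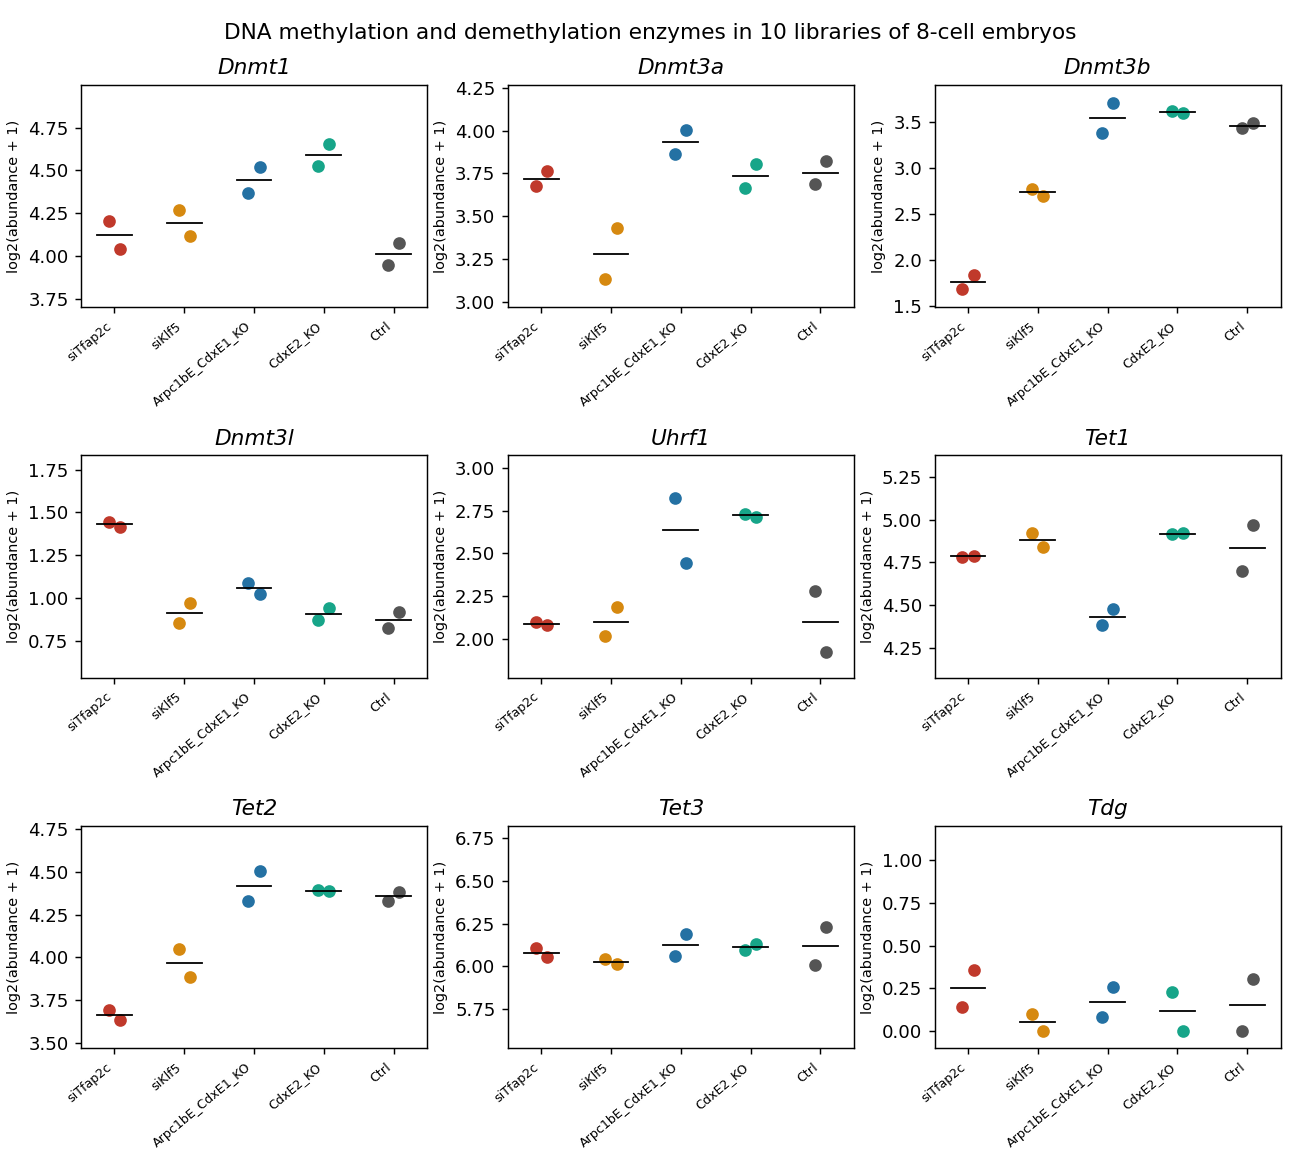
Deposited log2(abundance + 1) values of the 9 members in each library (points) with the mean of the 2 libraries of a group (lines); each panel has its own vertical range, which includes 0 for Tdg alone. Dnmt3b and Tet2 are lowest in siTfap2c and next lowest in siKlf5, Dnmt3l is highest in siTfap2c, and Tet1 is lowest in Arpc1bE_CdxE1_KO.

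The maintenance pair and the other enzymes stayed close to Ctrl after Tfap2c knockdown. Dnmt1 averaged 4.12 ± 0.11 log2 units in siTfap2c embryos and 4.01 ± 0.09 in Ctrl embryos (SD, n = 2 each), a difference of 0.11 with a 95% interval from -0.13 to 0.36. Dnmt3a, Uhrf1, Tet1 and Tet3 differed by -0.04, -0.01, -0.05 and -0.04 on the log2 scale, each with overlapping libraries and with intervals that reach at most 0.39 from 0. Among the 8-cell markers, 12 of 15 tested were lower and 1 higher in siTfap2c than in Ctrl, beside 11.9% and 12.6% of all genes. The lower ones include Tfap2c, the knockdown target, and Klf5. Not all of these calls held without any 1 library. The part of the marker differences in the member differences was not tested.

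Klf5 knockdown was accompanied by lower Dnmt3b, Dnmt3a and Tet2, each by less than 0.75 log2 units. These 3 of 8 tested members passed the test, all lower, where 7.52% of all 11195 genes passed, 5.27% lower and 2.25% higher. Of the genes called, 29.9% were higher as deposited and 46.2% with libraries centred on their medians. The median log2 difference was -0.05 over the tested members and -0.02 over all genes tested. The libraries of the groups did not overlap for 4 of 8 members, the 3 called and Dnmt1, and for 55.3% of all genes. None of the 3 calls held when a library was left out: without any 1 of the 4 libraries compared, 0 members passed.

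Dnmt3b stood at 2.77 and 2.70 log2 units in siKlf5 libraries, against 3.44 and 3.49 in Ctrl libraries. The log2 difference was -0.73 (SE 0.13, limma adjusted p = 0.0110), with values from -0.77 to -0.69 and adjusted p-values from 0.0502 to 0.0799 when 1 library was left out. Dnmt3a, the other catalytic de novo enzyme, on chromosome 12 from 3806007 to 3914443, stood at 3.13 and 3.43 in siKlf5 libraries, against 3.69 and 3.82 in Ctrl libraries. The 2 siKlf5 libraries were the lowest of all 10 but differed from each other about as much as the nearer of them differed from Ctrl. The log2 difference of Dnmt3a was -0.47 (SE 0.12, limma adjusted p = 0.0496). This call was also lost with no filter on low values (adjusted p = 0.0976) and with libraries centred on their medians (0.0832). The same call failed with no trend in limma (0.0706) and with only the 4 libraries compared in the fit (0.0682). Dnmt3a shares 133 exonic bases with its antisense gene Dnmt3aos. Tet2 stood at 4.05 and 3.89 in siKlf5 libraries, against 4.33 and 4.38 in Ctrl libraries. Its log2 difference was -0.39 (SE 0.10, limma adjusted p = 0.0453). The call was lost with no filter (0.0692), with centred libraries (0.0765) and with the replicate number as a block (0.0687). It was also lost with no trend in limma (0.0697) and with only the 4 libraries compared in the fit (0.0544).

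No other member passed in siKlf5 embryos. Dnmt1 averaged 4.19 ± 0.11 log2 units in siKlf5 embryos and 4.01 ± 0.09 in Ctrl embryos (SD, n = 2 each), a difference of 0.18 (limma adjusted p = 0.367) although the libraries did not overlap. Dnmt3l, Uhrf1, Tet1 and Tet3 differed by 0.04, 0.00, 0.05 and -0.09 log2 units. Of the 8-cell markers, 5 of 15 tested, the target Klf5 among them, were lower in siKlf5, beside 5.27% of all genes. In the same comparison 1 was higher, beside 2.25% of all genes. Most of these calls were lost in some fit that left out 1 library.

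**Figure D2:**
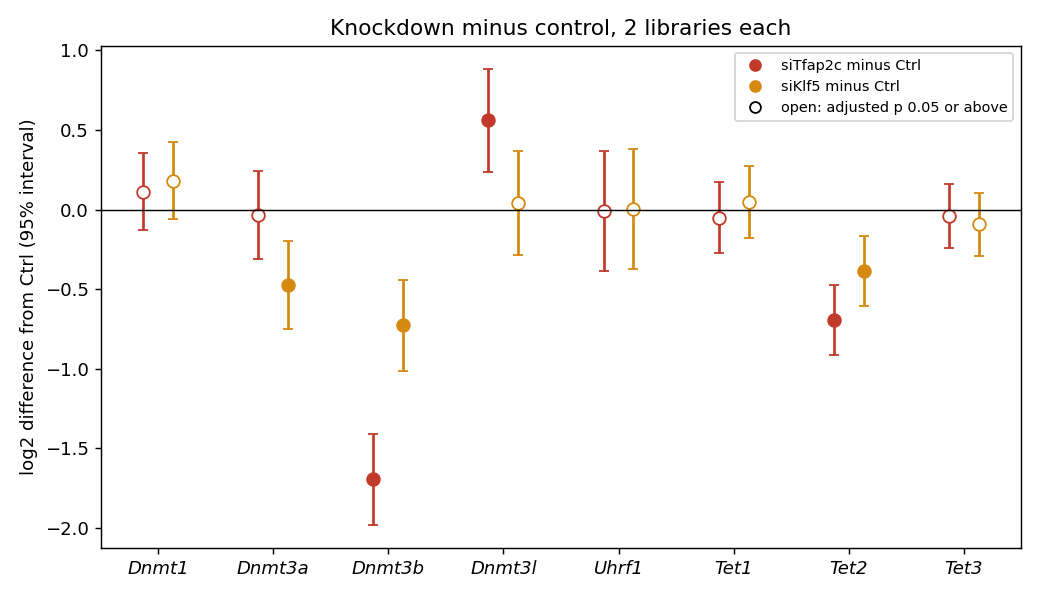
Log2 difference of each tested member in siTfap2c (left point of each pair) and siKlf5 (right point), each minus Ctrl, with its 95% interval; filled points have a limma adjusted p under 0.05. Dnmt3b is the lowest in both comparisons, at -1.70 and -0.73, and Dnmt3l is above 0 with its whole interval in siTfap2c.

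Both knockdowns were set against the same Ctrl libraries, so their differences from Ctrl are not independent, and the direct contrast between them was fitted in the same model. It called 4 of 8 tested members, 2 higher and 2 lower, where 25.6% of all genes passed, 15.1% higher and 10.5% lower. Libraries did not overlap for 6 of 8 members and for 66.9% of all genes. With centred libraries 46.5% of the genes called between the knockdowns were higher in siTfap2c, against 59.1% as deposited. Dnmt3b was lower in siTfap2c than in siKlf5 embryos by 0.97 log2 units (log2 difference -0.97, SE 0.13, limma adjusted p = 0.000678), and this held without any 1 library, from -1.04 to -0.89. Dnmt3a was higher in siTfap2c by 0.44 (adjusted p = 0.0283), Dnmt3l by 0.52 (0.0272), and Tet2 was lower with a log2 difference of -0.31 (0.0465). Without siTfap2c replicate 1 or 2 or siKlf5 replicate 1, Dnmt3a no longer passed (adjusted p up to 0.185), and Dnmt3l and Tet2 were lost without any 1 of the 4 libraries, up to 0.137 and 0.242. The Tet2 difference was also lost with the replicate number as a block (adjusted p = 0.0662), no filter (0.0638) or no trend (0.0639). With only the 4 libraries compared in the fit it was lost too (0.0616). With no filter the Dnmt3a difference was lost (0.0585). Dnmt1, Uhrf1, Tet1 and Tet3 differed by -0.07, -0.01, -0.10 and 0.05, their 95% intervals lying within 0.39 of 0.

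In the motif knockouts the members called were Dnmt1, Uhrf1 and Tet1. Their counts were near the share of all genes called, and their values depend on how the libraries are scaled. As deposited, Dnmt1 was higher than Ctrl in both motif knockouts, Uhrf1 was higher in CdxE2_KO, and Tet1 was lower in Arpc1bE_CdxE1_KO. In Arpc1bE_CdxE1_KO 2 of 8 tested members passed, 1 higher and 1 lower, where 24% of 10920 genes passed, 23.2% higher and 0.815% lower. In CdxE2_KO 2 of 8 passed, both higher, where 29.9% of genes passed, 28.5% higher and 1.44% lower. Libraries did not overlap with Ctrl for 5 of 8 members and 67.4% of all genes in Arpc1bE_CdxE1_KO, and for 4 of 8 members and 73.8% of all genes in CdxE2_KO. Nearly all calls over all genes were upward. The median log2 difference of all genes tested was 0.27 in Arpc1bE_CdxE1_KO and 0.29 in CdxE2_KO. Over the tested members it was lower, at 0.13 and 0.06. Of all genes called as deposited, 96.6% in Arpc1bE_CdxE1_KO and 95.2% in CdxE2_KO were higher; with libraries scaled to the same sum 313 and 703 genes were called, 58.5% and 58.3% of them higher, and with libraries centred on their medians 321 and 681, 55.5% and 42.3% of them higher.

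Dnmt1, the maintenance methyltransferase on chromosome 9 from 20907209 to 20959888, had log2 levels of 4.37 and 4.52 in Arpc1bE_CdxE1_KO libraries and 4.52 and 4.65 in CdxE2_KO libraries, against 3.95 and 4.08 in Ctrl libraries. All 4 knockout libraries were above both controls. The log2 difference was 0.43 (SE 0.11, limma adjusted p = 0.0325) in Arpc1bE_CdxE1_KO and 0.58 (SE 0.11, adjusted p = 0.0118) in CdxE2_KO. With libraries scaled to the same sum the differences were 0.12 (adjusted p = 0.587) and 0.29 (0.160), and neither passed. With centred libraries they were 0.11 (adjusted p = 0.612) and 0.25 (0.239). The Arpc1bE_CdxE1_KO call was also lost with no filter on low values (0.0682) and with no trend in limma (0.0548). As deposited, the Arpc1bE_CdxE1_KO call was lost without its replicate 2 or either Ctrl library, up to an adjusted p of 0.173, and the CdxE2_KO call without its replicate 2 or either Ctrl library, up to 0.0814.

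Uhrf1, which brings Dnmt1 to hemimethylated sites, lies on chromosome 17 from 56303321 to 56323486. Its log2 levels were 2.83 and 2.45 in Arpc1bE_CdxE1_KO libraries and 2.73 and 2.71 in CdxE2_KO libraries, against 2.28 and 1.92 in Ctrl libraries. The 4 knockout libraries were again above both controls, with the 2 Ctrl libraries far apart from each other. The log2 difference in CdxE2_KO was 0.62 (SE 0.19, limma adjusted p = 0.0428). This call was lost without any 1 of the 4 libraries, and with no filter on low values (adjusted p = 0.114). The difference became 0.38 (adjusted p = 0.232) with the same sum per library and 0.29 (0.353) with centred libraries. In Arpc1bE_CdxE1_KO it was 0.54 (adjusted p = 0.0742) and did not pass. Leaving out 1 library moved that value from 0.35, without Arpc1bE_CdxE1_KO replicate 1, to 0.73, without Arpc1bE_CdxE1_KO replicate 2, where it passed (adjusted p = 0.0413), as it did with all 10 libraries in the fit (0.0373). A pseudogene not listed in the tables, Gm5648, matches 1590 bases of a Uhrf1 transcript at 98.3% identity, so reads could be split between them.

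Tet1, the oxidase abundant in pluripotent cells, on chromosome 10 from 62804570 to 62908996, had log2 levels of 4.38 and 4.48 in Arpc1bE_CdxE1_KO libraries and 4.91 and 4.92 in CdxE2_KO libraries, against 4.70 and 4.97 in Ctrl libraries. The 2 Arpc1bE_CdxE1_KO libraries were the lowest of all 10. The log2 difference from Ctrl was -0.41 (SE 0.11, limma adjusted p = 0.0424) and became -0.72 (adjusted p = 0.0261) with the same sum per library and -0.73 (0.0280) with centred libraries. As deposited it was lost without Arpc1bE_CdxE1_KO replicate 1 or either Ctrl library, up to an adjusted p of 0.227, and with no filter on low values (0.0900) or no trend in limma (0.0714). In CdxE2_KO the log2 difference was 0.08 (adjusted p = 0.607).

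**Figure D3:**
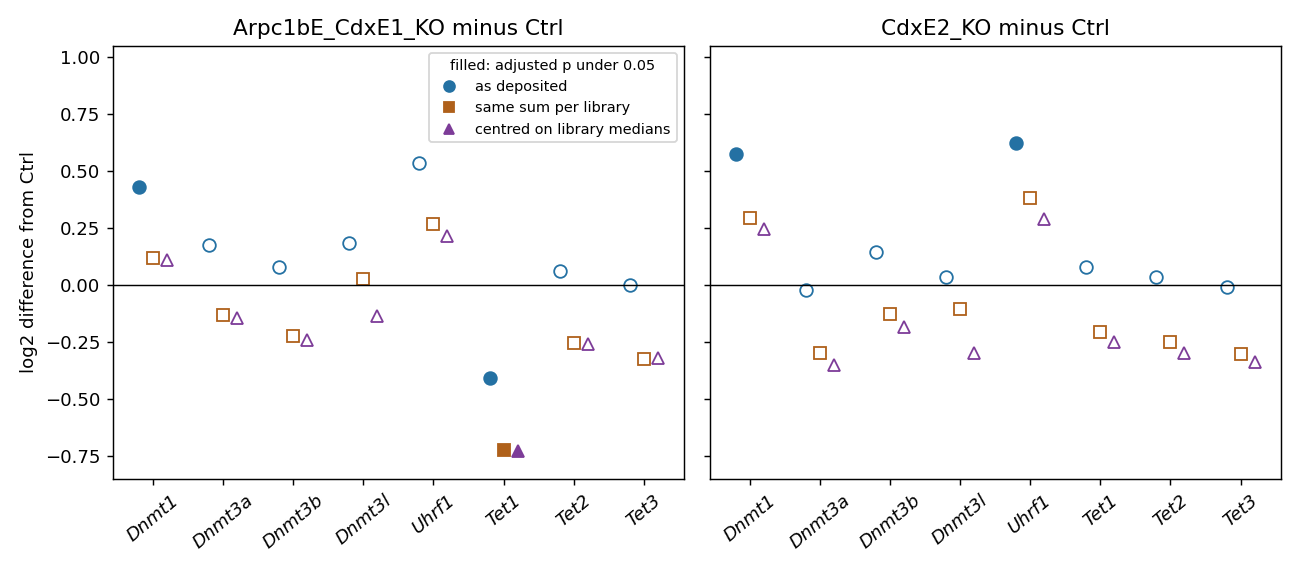
Log2 difference from Ctrl of each tested member in Arpc1bE_CdxE1_KO (left panel) and CdxE2_KO (right panel), with the values as deposited (circles), scaled to the same sum per library (squares) or centred on library medians (triangles); filled symbols have a limma adjusted p under 0.05. Tet1 in the left panel is filled under all 3 scalings, at -0.41, -0.72 and -0.73, and Dnmt1 only as deposited.

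The de novo enzymes did not pass in either motif knockout. Dnmt3b averaged 3.54 ± 0.23 log2 units in Arpc1bE_CdxE1_KO and 3.61 ± 0.01 in CdxE2_KO embryos, against 3.46 ± 0.03 in Ctrl embryos (SD, n = 2 each). Dnmt3a averaged 3.93 ± 0.10 and 3.73 ± 0.10 in the same order, against 3.75 ± 0.10 in Ctrl. Tet2 averaged 4.42 ± 0.12 and 4.39 ± 0.01, against 4.36 ± 0.03 in Ctrl. As deposited the differences of these 3 members from Ctrl lay between -0.02 and 0.18, and under both other scalings all 6 were below 0. In the fit of this table Dnmt3l passed the filter only through Arpc1bE_CdxE1_KO, at 1.09 and 1.02 log2 units there and 0.87 and 0.94 in CdxE2_KO, against 0.82 and 0.92 in Ctrl. Summed oocyte transcripts were 144 to 188 linear units in Arpc1bE_CdxE1_KO libraries and 163 to 175 in CdxE2_KO libraries, against 105 to 109 in Ctrl libraries, and their part in these differences was not tested. In Arpc1bE_CdxE1_KO 6 of 19 tested oocyte genes were higher, beside 23.2% of all genes, and 0 of these calls remained under either other scaling. In CdxE2_KO 9 were higher, beside 28.5% of all genes, and 1 of these calls, that of Btg4, remained under both. No oocyte gene passed in either knockdown against Ctrl.

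Set against each other, the motif knockouts differed at none of the 8 tested members, and at 5 of 10920 genes, or 0.0458%, by limma at an adjusted p under 0.05, 0.0366% higher and 0.00916% lower in CdxE2_KO. At an unadjusted p under 0.05 there were 1238 such genes and 1 member. That member was Tet1, higher in CdxE2_KO than in Arpc1bE_CdxE1_KO by 0.49 log2 units (SE 0.11, 95% interval 0.22 to 0.76, limma adjusted p = 0.320). Libraries did not overlap for 4 of 8 members, Tet1 among them, and for 43.4% of all genes.

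Scaling does not enter the ratio of 2 members within a library, and 3 such ratios were chosen after their values were seen, so they are given with no test. The linear ratio of Tet1 to Tet3 was 0.302 and 0.296 in Arpc1bE_CdxE1_KO libraries and 0.431 and 0.424 in CdxE2_KO libraries, against 0.394 and 0.409 in Ctrl libraries. The Arpc1bE_CdxE1_KO libraries stood below all 8 others. The ratio of Dnmt3b to Dnmt1 was 0.128 and 0.168 in siTfap2c, 0.320 and 0.336 in siKlf5, 0.481 and 0.549 in Arpc1bE_CdxE1_KO and 0.515 and 0.461 in CdxE2_KO libraries, against 0.684 and 0.644 in Ctrl libraries. That ratio was below Ctrl in all 4 other groups, lowest in siTfap2c. For Tet2 over Tet3 it was 0.175 and 0.174 in siTfap2c and 0.240 and 0.217 in siKlf5 libraries, against 0.302 and 0.267 in Ctrl libraries.

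**Figure D4:**
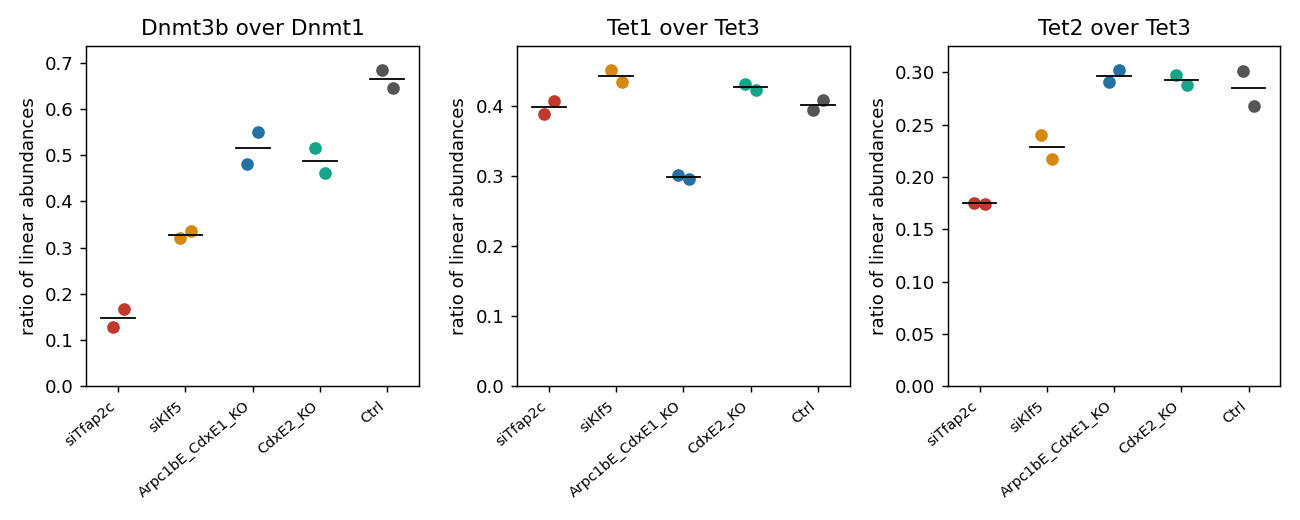
Ratio of the linear abundances of 2 members within each library (points) with the group mean (lines), from 0. Dnmt3b over Dnmt1 is highest in Ctrl, at 0.684 and 0.644, and Tet1 over Tet3 is lowest in Arpc1bE_CdxE1_KO, at 0.302 and 0.296.

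As deposited, Tet3 had the narrowest range of the tested members. Its log2 level ran from 6.01 to 6.23 over all 10 libraries, both extremes being Ctrl libraries. Its difference from Ctrl lay between -0.09 and 0.00 in the 4 comparisons. In Arpc1bE_CdxE1_KO that difference became -0.32 with the same sum per library (limma adjusted p = 0.141) and -0.32 with centred libraries (0.151). Tdg was too low to test. It was listed at 0 in 3 of 10 libraries and reached at most 0.36 log2 units, in siTfap2c replicate 2. Tdg on chromosome 10 from 82629828 to 82650799 shares 367 exonic bases with Glt8d2 on the opposite strand, and the processed pseudogene Tdg-ps matches 2968 bases of a Tdg transcript at 98.7% identity, so how its reads were assigned is uncertain. Tet3 lies on chromosome 6 from 83362373 to 83459084. A stretch of 1434 bases of a Dnmt3b transcript matches Dnmt3c, which was not listed in the tables, at 93.9% identity.

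The order of the group means differed between members. For Dnmt3b it was siTfap2c, siKlf5, Ctrl, Arpc1bE_CdxE1_KO and CdxE2_KO from low to high. Arpc1bE_CdxE1_KO overlapped both Ctrl and CdxE2_KO, while both CdxE2_KO libraries lay above both Ctrl libraries, a difference of 0.15 log2 units that did not pass (limma adjusted p = 0.419). Tet2 had siTfap2c lowest, then siKlf5, then Ctrl, CdxE2_KO and Arpc1bE_CdxE1_KO close together between 4.36 and 4.42. For Dnmt1 the order was Ctrl, siTfap2c, siKlf5, Arpc1bE_CdxE1_KO and CdxE2_KO, where siTfap2c overlapped both Ctrl and siKlf5, siKlf5 lay above Ctrl without overlap, and the motif knockouts met at 4.52.

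Around the members, 5 lists of partner genes were counted. In siTfap2c embryos 41 of the 127 listed genes tested passed, 18 higher and 23 lower, beside 24.6% of all genes, 12.6% higher and 11.9% lower. Of these calls 21 held without any 1 of the 4 libraries. Among methylation readers and maintenance partners 7 of 32 tested rose and 4 fell, with a median log2 difference of -0.02 against 0.04 over all genes. Mbd5, of the methyl-CpG-binding domain family, rose by 0.86 (limma adjusted p = 0.000189), while Trim28, a corepressor at imprinted regions, fell by 0.68 (0.00119). Dppa3, a maternal protein that protects methylation in the mouse zygote, had 7.87 and 7.76 log2 units in siTfap2c libraries, against 8.57 and 8.54 in Ctrl libraries, and fell by 0.74 (limma adjusted p = 0.00219). Mbd3, a subunit of the NuRD complex, fell by 0.46 (adjusted p = 0.00677), a call lost in 1 of 4 fits that left out a library, at 0.0576.

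Among partners of the Tet enzymes 1 of 20 tested rose and 6 fell in siTfap2c, beside 12.6% and 11.9% of all genes. Their median log2 difference was -0.07. The transcriptional repressor Rest had 7.51 and 7.54 log2 units in siTfap2c libraries, against 8.94 and 8.94 in Ctrl libraries, and fell by 1.41 (limma adjusted p = 2.17e-06). Ddb1, an adaptor of the Cul4 ubiquitin ligases, fell by 0.80. Cul4a, a scaffold of those ligases, rose by 1.00 (limma adjusted p = 0.000303). The calls of Rest, Ddb1 and Cul4a held without any 1 library.

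In the methyl donor cycle 5 of 27 tested genes rose and 6 fell, beside 12.6% and 11.9% of all genes, with a median of -0.22. Bhmt, which remethylates homocysteine with betaine, had 5.85 and 6.11 log2 units in siTfap2c libraries, against 8.22 and 8.11 in Ctrl libraries, and fell by 2.19 (limma adjusted p = 4.77e-06). Bhmt2 fell by 1.10, the thymidylate synthase Tyms by 1.17 and Amt of the glycine cleavage system by 1.20. In base excision repair, the pathway that follows Tdg, 0 of 25 rose and 3 fell, a count near the 11.9% of all genes that fell. Xrcc1 fell by 0.47, Parp1 by 0.38 and Lig1 by 0.49. The Parp1 and Lig1 calls were lost in 2 and 3 of the 4 fits that left out a library, at adjusted p-values up to 0.0857 and 0.0833.

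The germline list held 23 tested genes whose promoters are known to be silenced by methylation in later mouse tissues. In siTfap2c 5 rose and 4 fell, beside 12.6% and 11.9% of all genes, with a median of -0.01. Brdt, a bromodomain protein of the testis, rose by 1.10, the dipeptidase Dpep3 by 1.06 and Mael of the piRNA pathway by 0.75, while the meiotic cohesin subunit Stag3 fell by 0.95. The list did not move in one direction.

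In siKlf5 embryos 9 of the 127 listed genes tested passed, 3 higher and 6 lower, beside 7.52% of all genes, 2.25% higher and 5.27% lower. None of these 9 calls held in all 4 fits that left out a library. Bhmt2 fell by 0.62 (limma adjusted p = 0.0187, up to 0.118 without 1 library) and the germline gene Piwil2 by 0.61 (0.00898, up to 0.0663). The repair enzymes Ung and Apex2 fell by 0.48 and 0.73 and the chromatin organiser Ctcf by 0.33. Morc1 rose by 0.50, Uhrf2, a relative of Uhrf1, by 0.67 and Rest by 0.30. Counts were 2 higher and 1 lower of 32 readers and partners, 1 and 0 of 20 Tet partners, 0 and 2 of 25 repair genes, 0 and 2 of 27 methyl donor genes, and 0 and 1 of 23 germline genes.

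**Figure D5:**
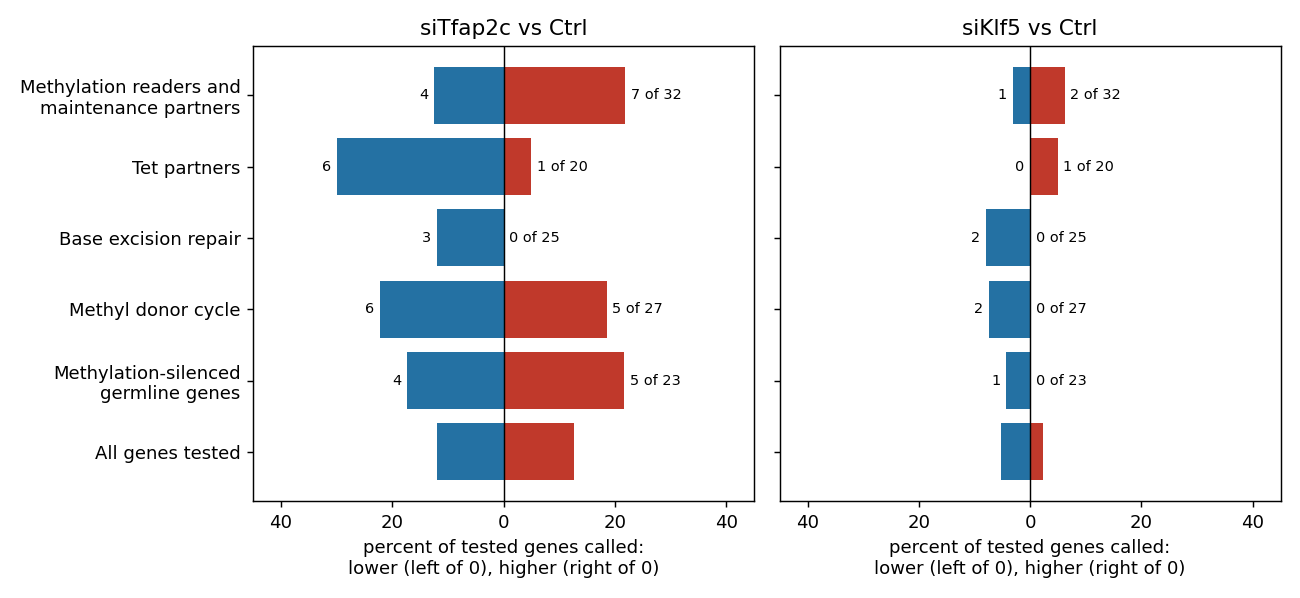
Percent of the tested genes of each list, and of all genes tested, with a limma adjusted p under 0.05 in siTfap2c (left panel) and siKlf5 (right panel) against Ctrl, lower to the left of 0 and higher to the right, with counts beside the bars. In siTfap2c 6 of 20 Tet partners are lower and 1 is higher, beside 11.9% and 12.6% of all genes.

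In the motif knockouts the list counts followed the shift of the whole table. In Arpc1bE_CdxE1_KO 40 of the 126 listed genes tested passed, 38 higher and 2 lower, beside 23.2% and 0.815% of all genes. Under both other scalings 2 of these calls remained. In CdxE2_KO 45 of 126 passed, 41 higher and 4 lower, beside 28.5% and 1.44% of all genes, and 7 remained. In both groups nearly all of these calls were lost in some fit that left out 1 library. Medians of the 5 lists lay between 0.16 and 0.38 in Arpc1bE_CdxE1_KO and between 0.22 and 0.39 in CdxE2_KO, beside 0.27 and 0.29 over all genes. Uhrf2 rose by 1.13 (limma adjusted p = 0.00443) and Brdt by 0.81 (0.00385) in CdxE2_KO, both also with the other scalings and without any 1 library. Hormad1, a meiotic chromosome axis protein, rose by 1.19 in Arpc1bE_CdxE1_KO and 1.27 in CdxE2_KO, the second also under both other scalings. The next genes passed under neither of the other scalings. Hells, a chromatin remodeller of the maintenance machinery, was higher by 0.61 in Arpc1bE_CdxE1_KO and 0.65 in CdxE2_KO, the methyl-CpG reader Zbtb33 by 0.80 and 0.82, the repair polymerase Polb by 0.79 and 0.81, and Gadd45b by 1.29 and 1.16. Of the Tet partners Nanog, a pluripotency factor that binds Tet1, was higher by 1.34 and 1.15, the corepressor scaffold Sin3a by 0.41 and 0.64 and Cul4b by 0.50 and 0.68 in the same order. The synaptonemal complex gene Sycp1 was higher by 0.85 and 0.69 and Mat2b, a subunit of the enzyme that makes S-adenosylmethionine, by 0.61 and 0.49.

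For each member called against Ctrl, the genes whose log2 values followed it most closely over the 10 libraries were taken from genes whose group means span at least 1 log2 unit. These Pearson correlations describe 10 points that share libraries and groups. Dnmt3b was nearest to Itga3 (r = 0.995), Lmnb1 (0.992) and Cdc42bpg (0.991), and among the nearest to Tet2 were Dnmt3b (0.982) and Plxnb2 (0.980). Dnmt3l was nearest to Scd2 (0.976), Fgf5 (0.973) and Sgk3 (0.969). The values for Dnmt3a were lower, with Nfe2 at 0.917, Cilp at 0.912 and Tnfsf13b at 0.911. Dnmt1 was nearest to Slc38a2 (0.954), Cbfb (0.952) and Tex15 (0.951), Uhrf1 to Mir3068 (0.985), Spcs2 (0.963) and Cenpw (0.962), and Tet1 to Degs2 (0.952), Dpm1-adnp (0.890) and Tnk1 (0.862).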

How the data were processed

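The deposited tables cover 24421 genes in 10 libraries with a single value each, on a log2 scale per the deposited tables' names, with a constant of 1 added. Which abundance was transformed is not given in the sources used here, and depth is unknown. Levels were therefore not ranked between genes. Ratios within a library and sums over marker lists do combine the levels of several genes. HISAT2 2.1.0, SAMtools 1.7, StringTie 1.3.4, Cufflinks and mm10 are named in the submitters' processing notes. Libraries were made with a stranded total RNA kit, per the labels' protocols.

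The members and gene lists were chosen with earlier results of these data known. Genes reaching 1 linear unit in 2 or more libraries entered limma 3.58.1 (eBayes with trend) in R 4.3.3, after tests on simulated data, and passed below 0.05 after Benjamini-Hochberg adjustment over all of them. Knockdowns were compared with Ctrl, and with each other, on all 10 libraries across 3 tables whose scaling may differ; the motif knockouts stand in 1 table with Ctrl and were fitted there. Named genes are the members, Klf5 and Tfap2c, up to 4 called genes with the lowest p and non-overlapping libraries per list and comparison with Ctrl, and the 3 nearest patterns per called member. In the motif knockouts only some of these are printed, and a few elsewhere are not reported here. Marker lists serve as checks. Alternatives covered the added constant, the filter, the scaling, the replicate block, the trend, the libraries fitted and each left-out library. Near-identical transcripts were sought with BLAST+ 2.17.0 in GENCODE, which also gave gene positions (mm10).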

Additional observations from a re-analysis of the deposited data

Results flagged for a closer look

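In 4 members the difference between the knockdowns was itself past the threshold in the direct contrast of siTfap2c with siKlf5, by limma with adjustment over all genes. The log2 difference, siTfap2c minus siKlf5, was -0.968 for Dnmt3b, 0.439 for Dnmt3a, 0.518 for Dnmt3l and -0.307 for Tet2. Dnmt3b and Tet2 were below Ctrl in both knockdowns and lower in siTfap2c, Dnmt3a was below Ctrl in siKlf5 with siTfap2c close to Ctrl, and Dnmt3l was above Ctrl in siTfap2c with siKlf5 close to Ctrl. The Dnmt3b difference held without any 1 library and under both other scalings. Each of the other calls was lost in some fit that left out 1 library. With centred libraries Dnmt3a (limma adjusted p = 0.0660) and Dnmt3l (0.0516) no longer passed. With the same sum per library Tet2 no longer passed (0.0671).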

How the results depend on the processing

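The lower Dnmt3b and Tet2 of siTfap2c embryos passed under every alternative run, and no member called as deposited changed sign under any. The 52 changes of sign were among differences that did not pass. With the same sum per library they were -0.13 for Dnmt3a, -0.22 for Dnmt3b, -0.25 for Tet2 and -0.32 for Tet3 in Arpc1bE_CdxE1_KO, -0.13 for Dnmt3b, -0.10 for Dnmt3l, -0.21 for Tet1 and -0.25 for Tet2 in CdxE2_KO, -0.0109 for Uhrf1 in siKlf5, 0.00326 for Uhrf1 between the knockdowns, and 0.00503 for Tet2 and 0.0238 for Tet3 between the motif knockouts. With centred libraries they were -0.14 for Dnmt3a, -0.24 for Dnmt3b, -0.13 for Dnmt3l, -0.26 for Tet2 and -0.32 for Tet3 in Arpc1bE_CdxE1_KO, -0.18 for Dnmt3b, -0.30 for Dnmt3l, -0.25 for Tet1 and -0.30 for Tet2 in CdxE2_KO and -0.0164 for Tet3 between the knockdowns. Leaving out 1 library, the ranges that crossed 0 were -0.10 to 0.0328 for Dnmt3a, -0.19 to 0.17 for Uhrf1, -0.18 to 0.0827 for Tet1 and -0.15 to 0.0706 for Tet3 in siTfap2c, -0.0183 to 0.10 for Dnmt3l, -0.18 to 0.18 for Uhrf1, -0.0862 to 0.18 for Tet1 and -0.20 to 0.0176 for Tet3 in siKlf5, -0.15 to 0.0117 for Dnmt1 and -0.10 to 0.0744 for Uhrf1 between the knockdowns, -0.0803 to 0.24 for Dnmt3b, -0.0269 to 0.15 for Tet2 and -0.11 to 0.11 for Tet3 in Arpc1bE_CdxE1_KO, -0.0914 to 0.0502 for Dnmt3a, -0.0138 to 0.0819 for Dnmt3l, -0.0523 to 0.22 for Tet1 and -0.12 to 0.11 for Tet3 in CdxE2_KO, and -0.0919 to 0.23 for Dnmt3b, -0.10 to 0.28 for Uhrf1, -0.11 to 0.0618 for Tet2 and -0.0715 to 0.0538 for Tet3 between the motif knockouts.

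Counts of called members moved to 1 in siKlf5 with no filter, centring, no trend or only 4 libraries fitted, and to 2 between the knockdowns with no filter or centring. In Arpc1bE_CdxE1_KO they moved to 1 under either other scaling and to 0 with no filter or no trend, and in CdxE2_KO to 0 under either scaling and 1 with no filter. With 1 library left out they were 0 in every fit in siKlf5, 1 to 2 between the knockdowns, 0 to 2 in Arpc1bE_CdxE1_KO and 0 to 1 in CdxE2_KO. A lone library is then assumed to vary like the other groups. Smaller moves came with other settings. With the filter at 5 linear units 2 members passed in siTfap2c, both lower, and with the block 2 in siKlf5, both lower. Between the knockdowns 2 higher and 1 lower passed with the same sum, the block, no trend or only 4 libraries fitted. With the filter at 5 these were 1 and 2. In Arpc1bE_CdxE1_KO 2 higher and 1 lower passed with all 10 libraries fitted.

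Counts over all genes moved with no filter to 507 in siKlf5, 1166 in Arpc1bE_CdxE1_KO, 1858 in CdxE2_KO and 0 between the motif knockouts, with centring to 321 in Arpc1bE_CdxE1_KO and 681 in CdxE2_KO, and with the same sum to 313 and 703. Between the motif knockouts they were 14 with all 10 libraries fitted and 2 without trend. Without 1 library they were 1535 to 1773 in siTfap2c, 211 to 317 in siKlf5, 1587 to 1785 between the knockdowns, 161 to 2864 in Arpc1bE_CdxE1_KO, 514 to 1099 in CdxE2_KO and 4 to 200 between the motif knockouts. The Arpc1bE_CdxE1_KO count was 313 without Ctrl replicate 1 and 161 without Ctrl replicate 2, and the count between the motif knockouts was 200 without Arpc1bE_CdxE1_KO replicate 2. Smaller moves of the counts over all genes are not listed here, and the cause of the moves was not tested.

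Same-numbered libraries deviated together with correlations of only -0.05 to 0.04 over 11195 genes. No pairing was seen over all genes, which does not exclude it for single genes. Dnmt3a was higher in replicate 2 than in replicate 1 in every group. With the replicate block its limma adjusted p was 0.0302 in siKlf5 and 0.0137 between the knockdowns, against 0.0496 and 0.0283 without. With that block Dnmt3b had an adjusted p of 6.54e-05 in siTfap2c, and 2615 genes passed there. The Tet2 calls in siKlf5 (0.0687) and between the knockdowns (0.0662) were lost. Dnmt3l was not tested with the filter at 5 linear units. An added constant of 0.1 in place of 1 gave a Dnmt3b log2 difference of -2.02 in siTfap2c, since 1 compresses low values. With 2 libraries a group, small differences of low members such as Dnmt3l and Tdg are not resolved, and depth is unknown.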

Other observations

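Amd1, whose product makes the aminopropyl donor from S-adenosylmethionine, was the listed gene furthest from Ctrl in the motif knockouts. It stood at 0.28 and 0.04 log2 units in Arpc1bE_CdxE1_KO libraries and 0.02 and 0.05 in CdxE2_KO libraries, against 4.0 and 3.21 in Ctrl libraries (limma adjusted p = 0.00101 and 0.00109). Amd2, a mouse relative of Amd1, was listed at 6.73 and 7.31 in Arpc1bE_CdxE1_KO libraries and 7.47 and 7.40 in CdxE2_KO libraries, against 6.68 and 6.76 in Ctrl libraries. In siTfap2c Amd1 stood at 3.74 and 3.93 and Amd2 at 6.81 and 6.62, and in siKlf5 Amd1 stood at 4.26 and 4.76 and Amd2 at 6.67 and 6.47. How the counting shared reads between these relatives was not tested, so the Amd1 value is uncertain.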
